A study of Mus musculus with 8 samples.

Results

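The genes that move iron and copper into, within and out of cells were examined in Paneth cells of the mouse small intestine. They were taken by name from the count table: Slc11a2, Slc40a1, Tfrc, Fth1, Ftl1, Slc31a1, Atp7a, Atp7b, Heph and Cybrd1. All 10 were found among the 55414 gene identifiers of the table, and all 10 were among the 10911 genes with enough counts to be tested. Cells of 8 mice of the C57BL/6J strain were collected by fluorescence-activated cell sorting. A group of 4 mice received standard chow (control), and a group of 4 mice received zinc depleted chow (zinc deficient). A diet period of 7 weeks is given for both groups. Each mouse gave 1 bulk RNA-seq library, and the mice carried no transgene or other treatment that the labels name. The datasets of the study include both sexes, but the age and sex of these 8 mice were not found in the labels or methods. The sorting scheme is shown in the study only as a picture and was not used here.

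Paneth cells sit at the base of the intestinal crypts and secrete antimicrobial peptides from granules that are rich in zinc. Iron from the diet is reduced at the cell surface, taken up as ferrous iron, stored in ferritin or exported to the blood, and cells also import iron bound to transferrin, above all when they divide. Copper follows a parallel route, with an importer at the surface and ATP-driven pumps that load copper enzymes and remove the excess. Both metals meet in hephaestin, a copper enzyme that oxidises iron as it leaves the cell. The messenger RNAs of ferritin, ferroportin and the transferrin receptor carry iron-responsive elements, short hairpins that are bound by iron regulatory proteins when iron is scarce. Binding in a 5′ UTR blocks translation, whereas binding in the 3′ UTR of the transferrin receptor message protects it from decay. The level of a ferritin message and the level of ferritin protein can therefore differ.

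The hairpins are shown for the 4 genes in which the search found them. They were found by a search of the annotated UTRs for a C, 5 bases, CAGTGN and 5 bases that pair with the former 5 (Watson-Crick or G-T), on the sense strand only. The unpaired C and the loop are in capitals, and positions are on GRCm39.
Fth1 5′ UTR, chr19:9960096-9960124, plus strand: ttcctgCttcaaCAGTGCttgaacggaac
Ftl1 5′ UTR, chr7:45109203-45109231, minus strand: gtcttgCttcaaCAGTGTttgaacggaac
Slc40a1 5′ UTR, chr1:45964625-45964653, minus strand: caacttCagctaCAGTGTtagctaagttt
Tfrc 3′ UTR, chr16:32450037-32450065, plus strand: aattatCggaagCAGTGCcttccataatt
Tfrc 3′ UTR, chr16:32450416-32450444, plus strand: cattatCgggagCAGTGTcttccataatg
Tfrc 3′ UTR, chr16:32450481-32450509, plus strand: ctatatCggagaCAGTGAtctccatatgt
Tfrc 3′ UTR, chr16:32450528-32450556, plus strand: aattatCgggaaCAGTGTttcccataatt
The letters stood in a 5′ UTR of 3 of the 10 genes, and of 47 of 20937 protein-coding genes with a 5′ UTR (0.224%). They stood in a 3′ UTR of 1 of the 10 genes, Tfrc, which held 4 matches, and of 163 of 20969 genes with a 3′ UTR (0.777%). A match is a stretch of letters and not a measured binding site, and the absence of these letters from the other UTRs says nothing more.

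In these Paneth cells the ferritin genes were by far the most abundant of the 10, and the iron exporter Slc40a1 was the lowest. None of the 10 genes passed the test between diets (edgeR, adjusted p under 0.05), against 44 of all 10911 genes (0.403%), of which 16 were higher and 28 lower. Of the 10 genes, 3 had an unadjusted p under 0.05 (Tfrc, Fth1 and Slc40a1), against 10.5% of all genes tested. DESeq2 also called 0 of the 10, with the same number at an unadjusted p under 0.05, against 1.34% of all genes called. For 2 of the 10 genes the normalised values of the diets did not overlap. Tfrc was lower in all 4 zinc deficient mice, and Fth1 was higher in all 4. With library size as the only scaling, the values of both genes overlapped between diets. Of all genes tested, 6.09% had no overlap (2.3% higher and 3.79% lower). Log2 fold changes were above 0 for 5 genes and below 0 for 5, with a median of -0.01, the same to 2 decimals as that of all genes tested (-0.01).

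**Figure D1:**
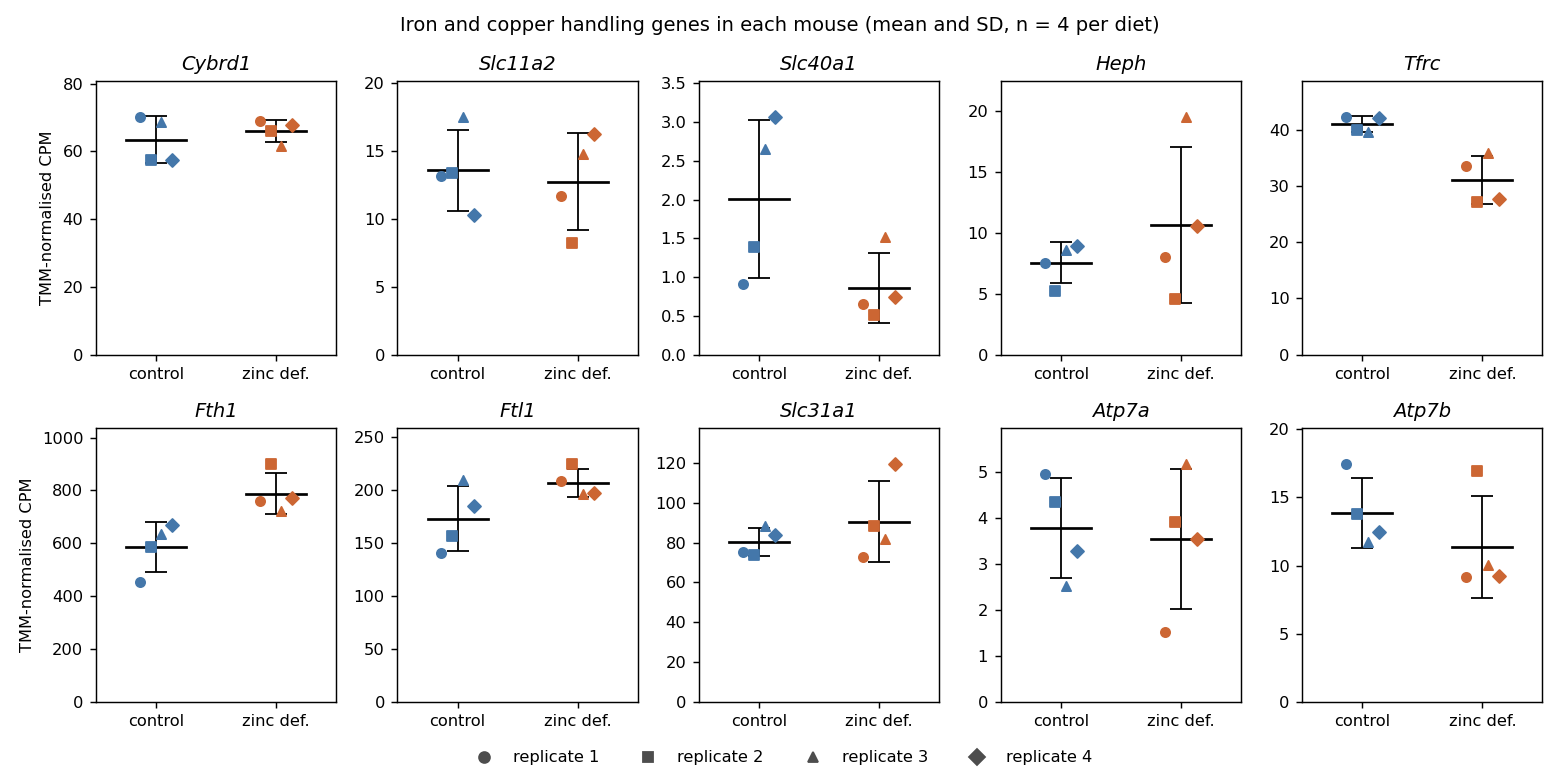
TMM-normalised level (CPM, linear axes from 0) of the 10 genes, with a symbol for each of the 4 control and 4 zinc deficient mice and the mean ± SD of each diet. On this scaling the values of the diets are apart for Tfrc and Fth1 and overlap for the other genes.

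Libraries held 8557690 to 12648005 counts, of which the 10 genes made up between 0.0963% and 0.129%. TMM factors, by which edgeR corrects library sizes for differences in composition, lay between 0.928 and 1.57 for control libraries and between 0.719 and 1.10 for zinc deficient libraries. Without them, the median log2 fold change of all genes moved to -0.37, so a fold change is given relative to that shift where it matters. The labelled cell type was checked against markers: 8 Paneth cell genes together reached 295002 to 608398 normalised CPM in the control mice and 477616 to 847570 in the zinc deficient mice. Of the macrophage markers, Adgre1 and Csf1r had no count in any mouse, C1qa reached 11 counts and Cd68 5 counts. Other genes of the list of macrophage and other immune cells were present, with 70 to 1417 counts of Cd74 and 272 to 553 counts of Lyz2 in a mouse. The methods of the study describe the sorted cells as almost free of other cells. Hemoglobin and other erythroid genes together stayed at or under 0.738 normalised CPM. In bulk libraries, fewer cells of a type and less RNA per cell cannot be told apart.

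Uptake of dietary iron begins with Cybrd1 (duodenal cytochrome b, ENSMUSG00000027015, chromosome 2, 70948267 to 70973270, GRCm39), a surface reductase that turns ferric into ferrous iron. Levels are counts per 1000000 counts of the TMM-corrected library (normalised CPM). The level of Cybrd1 was 70.3, 57.6, 68.8 and 57.4 CPM in control mice 1 to 4, and 68.9, 66.1, 61.5 and 67.9 CPM in zinc deficient mice 1 to 4. The zinc deficient values lay within the range of the control values, and the log2 fold change was 0.06 with a 95% interval of -0.22 to 0.34. This interval was the narrowest among the 10 genes. With library size as the only scaling the value became -0.32, which is 0.05 above the median of all genes. Cybrd1 and the iron genes that follow are best known from absorptive enterocytes. Markers of these cells together stood at 263 to 449 CPM in the control mice and 243 to 391 CPM in the zinc deficient mice. Of 11 tested, 0 were called. Most of this sum was Anpep alone, at 203 to 265 CPM in the control mice and 204 to 229 CPM in the zinc deficient mice. The part of enterocytes in these levels was not tested.

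Slc11a2 (DMT1, ENSMUSG00000023030, chromosome 15, 100285776 to 100322953) imports ferrous iron across the surface and out of endosomes. The control mice had 13.2, 13.4, 17.5 and 10.3 CPM, and the zinc deficient mice had 11.7, 8.21, 14.8 and 16.3 CPM. The ranges overlapped over most of their length. Its log2 fold change was -0.08 (SE 0.22, 95% interval -0.54 to 0.38), and its sign depended on single mice, with 0.06 without control mouse 3 and 0.08 without zinc deficient mouse 2. Counts of Cybrd1 were 3.93 to 5.59 times those of Slc11a2 in the control mice and 4.17 to 8.05 times in the zinc deficient mice.

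Tfrc (ENSMUSG00000022797, chromosome 16, 32427556 to 32451612) encodes the transferrin receptor, through which cells take up iron bound to transferrin. The control mice had 42.4, 40.1, 39.7 and 42.1 CPM. The zinc deficient mice had 33.6, 27.3, 35.9 and 27.7 CPM. Under TMM scaling the control mice lay within a narrow band, and every zinc deficient mouse was below it, with mice 2 and 4 lowest. The means were 41.1 ± 1.38 CPM and 31.1 ± 4.29 CPM (SD, n = 4 each). This gave a log2 fold change of -0.40 (SE 0.14, 95% interval -0.69 to -0.11), or 0.758 times the control level. It had the smallest adjusted p of the 10 genes (edgeR, adjusted p = 0.276) and did not pass the test. Scaled by library size only the log2 fold change was -0.74, which is -0.37 relative to the median of all genes. The control mice then spread more widely, with a mean of 47.4 ± 13.3 CPM against 28.4 ± 8.73 CPM (SD, n = 4 each). On that scaling zinc deficient mouse 3 lay above control mouse 3.

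Tfrc is known to be high in dividing cells, so markers of proliferation are given beside it. Of 8 such genes all 8 had log2 fold changes below 0, with a median of -0.62, and 7 had an unadjusted p under 0.05. Only Top2a, a DNA topoisomerase of dividing cells, was called (log2 fold change -1.18, edgeR adjusted p = 0.0229). Top2a stood at 44.5, 40.9, 29.5 and 39.8 CPM in the control mice and at 20.1, 10.5, 23.0 and 14.5 CPM in the zinc deficient mice. Like Tfrc, Top2a was lowest in zinc deficient mice 2 and 4, but of the 7 other markers only Ccna2 shared this. Mki67 had 9.39, 8.84, 14.5 and 17.6 CPM in zinc deficient mice 1 to 4, so that mouse 4 was the highest of its group. Pcna, a clamp for DNA polymerase, had a log2 fold change of -0.05 (SE 0.15). The summed level of the 8 genes was 158, 148, 131 and 154 CPM in the control mice and 97.9, 79.4, 105 and 99.99 CPM in the zinc deficient mice, without overlap. Over the 8 mice, Pearson correlation of log2 CPM with Tfrc was 0.972 for Top2a and 0.674 for Mki67, as a description. The part of these genes in the Tfrc result was not tested.

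The genes with the pattern most like that of Tfrc over the 8 mice, by Pearson correlation of log2 CPM among all genes tested, were Sh3rf2 (r = 0.985), H2-T3 (r = 0.979) and Slc26a3 (r = 0.977). These correlations are a description over 8 libraries that share the split by diet and the scaling factors.

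Iron is stored in ferritin, a shell built from heavy and light subunits. Fth1 (ENSMUSG00000024661, chromosome 19, 9957911 to 9962462) encodes the heavy subunit, which oxidises iron as it enters. The control mice had 452, 585, 634 and 669 CPM. The zinc deficient mice had 759, 901, 720 and 771 CPM. Under TMM scaling all zinc deficient mice were above all control mice, and control mouse 1 was the lowest of the 8. The means were 585 ± 95.2 CPM and 788 ± 78.3 CPM (SD, n = 4 each), and the log2 fold change was 0.43 (SE 0.19, 95% interval 0.03 to 0.83), or 1.35 times the control level. It did not pass the test (edgeR, adjusted p = 0.431). Scaled by library size only the log2 fold change was 0.10, which is 0.47 relative to the median of all genes. The values of the diets then overlapped. Their means were 652 ± 53.0 CPM in the control mice and 699 ± 65.6 CPM in the zinc deficient mice (SD, n = 4 each).

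Ftl1 (ENSMUSG00000050708, chromosome 7, 45107367 to 45109308) encodes the light subunit, which helps to form the iron core. The control mice had 141, 156, 209 and 185 CPM, and the zinc deficient mice had 208, 224, 196 and 197 CPM. Control mouse 3 lay inside the range of the zinc deficient mice, and the other control mice lay below it. The log2 fold change was 0.26 (SE 0.16, 95% interval -0.07 to 0.59, edgeR adjusted p = 0.611). Its sign turned to -0.07 with library size only, which is 0.30 relative to the median of all genes. Ferritin genes have processed copies in the genome, and only 14.1% of the 70-base windows of the canonical Ftl1 transcript, and 64.3% of those of Fth1, occurred nowhere else, so that their counts depend on how the authors treated reads with several matches. For the other genes at least 94.1% of the windows were unique.

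Fth1 counts were 3.03 to 3.75 times those of Ftl1 in the control mice and 3.65 to 4.01 times in the zinc deficient mice. The 2 ferritin genes together made 71.9% to 83.9% of the counts of the 10 genes in a mouse. The genes with the pattern most like that of Fth1 were Calml4 (r = 0.984), Cdpf1 (r = 0.981) and Jtb (r = 0.978), again as a description over 8 mice. Markers of Paneth cells had log2 fold changes on the same side as Fth1 under TMM scaling, with 8 of 8 above 0 and a median of 0.49. Of these, 3 had an unadjusted p under 0.05 and 0 were called, and their ranges of summed level overlapped between diets. Scaled by library size only, mean CPM was lower in the zinc deficient mice for Defa30 (75493 against 83499) and Itln1 (61497 against 67668). It was higher for the other Paneth cell markers. Goblet cell markers had 5 of 7 above 0, and their sum was 4561 to 11183 CPM in the control mice and 7588 to 14218 CPM in the zinc deficient mice. The part of these genes in the Fth1 values was not tested.

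A ratio of counts within a mouse does not depend on the scaling between libraries. Fth1 and Tfrc, the store and the importer, were 10.7, 14.6, 16.0 and 15.9 counts of Fth1 for each count of Tfrc in the control mice. In the zinc deficient mice the ratios were 22.6, 33.0, 20.1 and 27.9. Every zinc deficient mouse had a higher ratio than every control mouse, with means of 25.9 ± 5.75 and 14.3 ± 2.49 (SD, n = 4 each). The normalised values of neither gene overlapped between diets, on opposite sides. The separation of the ratios was therefore already fixed by those levels and adds nothing to them. The ratios were chosen with the values of these genes known and are given with no test.

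**Figure D2:**
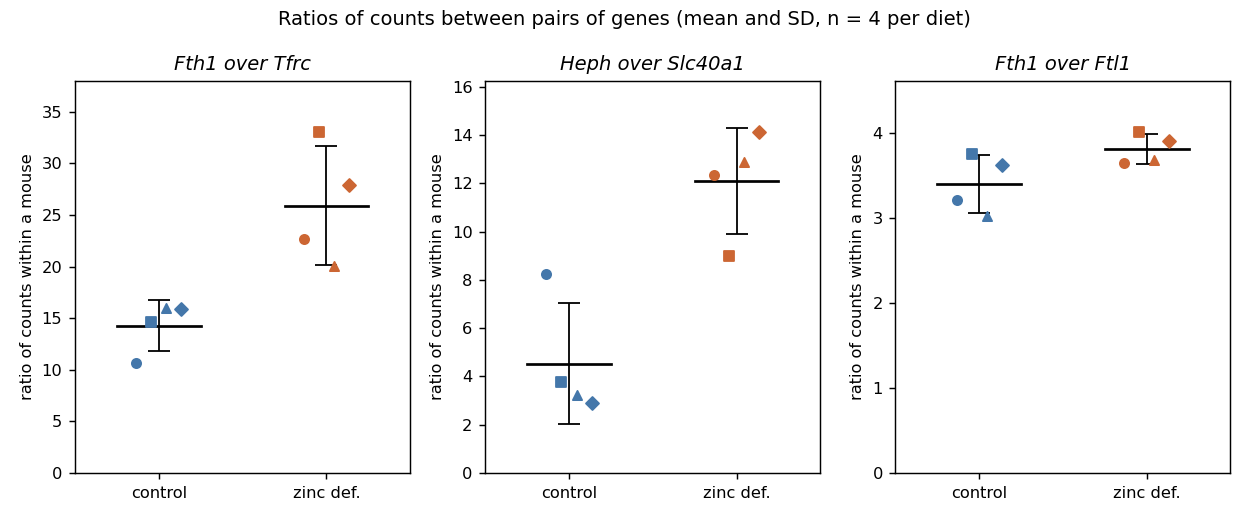
Ratios of counts within a mouse (linear axes from 0) for Fth1 over Tfrc, Heph over Slc40a1 and Fth1 over Ftl1, with 4 mice per diet, the same replicate symbols as in the plot of levels by mouse, and mean ± SD. The diets are apart for Fth1 over Tfrc (10.7 to 16.0 against 20.1 to 33.0) and for Heph over Slc40a1 (2.90 to 8.24 against 9.0 to 14.1), and they overlap for Fth1 over Ftl1.

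Slc40a1 (ENSMUSG00000025993, chromosome 1, 45947211 to 45965683) encodes ferroportin, the iron exporter of the cell. It had few counts, with 17, 17, 21 and 29 counts in the control mice and 6, 4, 19 and 8 counts in the zinc deficient mice. As normalised levels these were 0.917, 1.39, 2.65 and 3.07 CPM, and 0.647, 0.505, 1.52 and 0.748 CPM. Zinc deficient mouse 3 lay above control mice 1 and 2, and the other zinc deficient mice lay below all control mice. The log2 fold change of -1.14 was the most negative of the 10, with the widest error (SE 0.51, 95% interval -2.21 to -0.07, edgeR adjusted p = 0.443). At this depth a difference was not resolved.

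Ferroportin is also made by macrophages. The leukocyte gene Ptprc had 32 counts in zinc deficient mouse 3, which held the most Slc40a1 of its group, and 0 to 4 counts in the other mice. Other markers of the list did not follow Slc40a1: Cd74 (1417 counts) and C1qa (11 counts) were highest in control mouse 1, which had the least Slc40a1 of the control mice. The summed level of 11 markers of macrophages and other immune cells was 36.5 to 92.2 CPM in the control mice and 46.6 to 66.4 CPM in the zinc deficient mice, and 2 of the 11 were tested, with 0 called. The part of such cells in the Slc40a1 values was not tested.

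Heph (hephaestin, ENSMUSG00000031209, chromosome X, 95498965 to 95621010) is the copper enzyme that oxidises iron leaving through ferroportin. The control mice had 7.55, 5.25, 8.57 and 8.89 CPM, and the zinc deficient mice had 7.98, 4.55, 19.5 and 10.6 CPM. The zinc deficient group held both the lowest and the highest value, the latter in mouse 3. The log2 fold change was 0.52 (SE 0.35, 95% interval -0.23 to 1.27, edgeR adjusted p = 0.665), and it was 0.05 without zinc deficient mouse 3. That library also stood highest in its group for enterocyte markers, with a sum of 391 CPM against 243 to 301 CPM in the others. Anpep made 229 CPM of that sum, and Fabp1 (23.4 CPM) and Apoa4 (9.65 CPM) were also highest there. So were the goblet cell genes Fcgbp (842 CPM) and Zg16 (26.8 CPM). The sum of the 7 goblet cell markers was not highest there. It was 8882 CPM, against 7588, 10666 and 14218 CPM in zinc deficient mice 1, 2 and 4. Control mouse 3 had a higher enterocyte sum (449 CPM) beside 8.57 CPM of Heph. The part of these cells in the Heph values was not tested. Counts of Heph were 8.24, 3.76, 3.24 and 2.90 times those of Slc40a1 in the control mice. They were 12.3, 9.0, 12.9 and 14.1 times those of Slc40a1 in the zinc deficient mice, with no overlap between diets. The counts of Slc40a1 behind these ratios were as low as 4.

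Copper enters through Slc31a1 (CTR1, ENSMUSG00000066150, chromosome 4, 62278085 to 62320861), the high-affinity importer. The control mice had 75.4, 73.7, 88.4 and 84.1 CPM, and the zinc deficient mice had 72.7, 88.2, 81.6 and 120 CPM. Apart from zinc deficient mouse 4, which was the highest, the values of the diets spanned nearly the same range. Slc31a1 had a log2 fold change of 0.17 (SE 0.16, 95% interval -0.16 to 0.51), 0.01 without that mouse, and -0.18 with library size only, which is 0.18 relative to the median of all genes.

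Atp7a (ENSMUSG00000033792, chromosome X, 105070845 to 105171766) and Atp7b (ENSMUSG00000006567, chromosome 8, 22482801 to 22550352) encode the copper pumps, of which ATP7A carries copper out of intestinal cells and ATP7B is best known from the liver. For Atp7a the control mice had 4.96, 4.34, 2.52 and 3.28 CPM, and the zinc deficient mice had 1.51, 3.92, 5.18 and 3.55 CPM. The zinc deficient mice spanned the whole range of the controls. The log2 fold change of -0.11 (SE 0.34, 95% interval -0.82 to 0.61) became 0.06 without control mouse 1 and 0.14 without zinc deficient mouse 1.

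For Atp7b the control mice had 17.5, 13.8, 11.7 and 12.5 CPM, and the zinc deficient mice had 9.17, 16.9, 10.05 and 9.26 CPM. In the zinc deficient group 3 mice were below all control mice, and mouse 2 was above 3 of them. Atp7b had a log2 fold change of -0.31 (SE 0.22, 95% interval -0.76 to 0.15, edgeR adjusted p = 0.679), which was -0.55 without zinc deficient mouse 2 and -0.17 without control mouse 1. In counts Atp7b exceeded Atp7a in all 8 mice, by 3.17 to 4.65 times in the control mice and 1.94 to 6.07 times in the zinc deficient mice. Per kb of exon the ratio averaged 6.93. Mean levels over the 8 mice were 1.93 CPM per kb for Atp7b and 0.304 CPM per kb for Atp7a. With the canonical transcript length Atp7a had 0.449 CPM per kb and Atp7b was unchanged, so the ratio depends on the length taken.

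**Figure D3:**
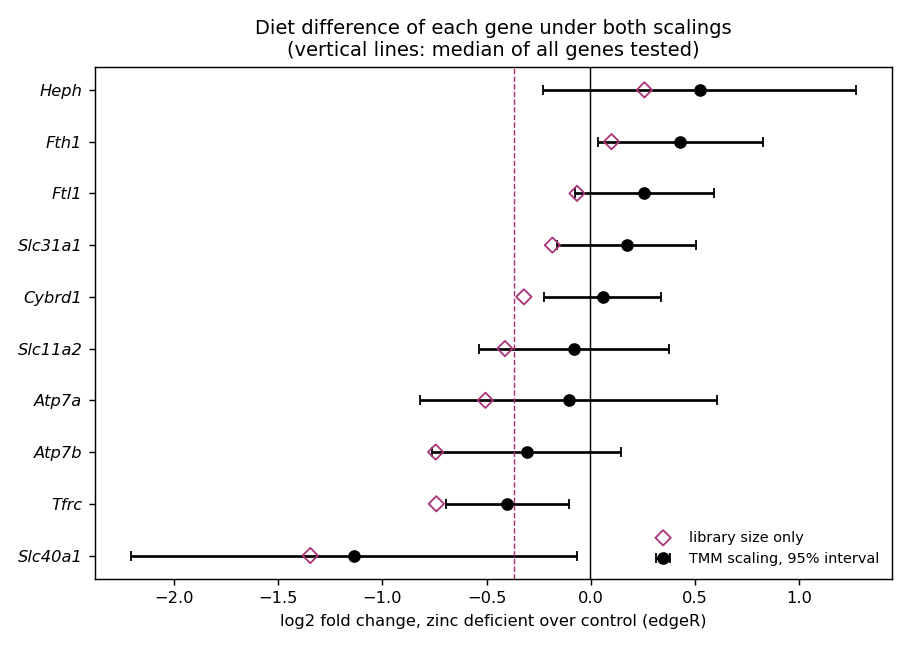
Log2 fold change of zinc deficient over control for each gene, as filled circles with 95% intervals (edgeR, TMM scaling) and as open diamonds with library size as the only scaling. The vertical lines mark the median of all genes tested under each scaling, -0.01 (solid) and -0.37 (dashed), and each gene lies on the same side of its line under both scalings.

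To compare levels between genes, normalised CPM were divided by the summed exon length in kb and averaged over the 8 mice. Fth1 had 195 CPM per kb, at or above 99.4% of all genes tested, and Ftl1 had 141. Cybrd1 followed with 12.1, Slc31a1 with 10.8 and Tfrc with 5.11 CPM per kb. The copper pump Atp7b had 1.93, Slc11a2 1.19, Heph 0.728, Atp7a 0.304 and Slc40a1 0.152 CPM per kb. Both genes of iron export, Slc40a1 and Heph, were thus among the lowest 3. With the canonical transcript length instead, Fth1 had 739 and Ftl1 196 CPM per kb. The log2 difference between these 2 genes then rose from 0.45 to 1.90.

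Neighbours in this order were compared by an exact two-sided sign-flip permutation test over the 8 mice, whose smallest possible p is 0.00781. Of 9 neighbouring pairs, 7 differed (adjusted p under 0.05). Cybrd1 and Slc31a1 were not separated by it (log2 difference 0.17, higher in 7 of 8 mice, exact permutation test, adjusted p = 0.0859), nor were Atp7a and Slc40a1 (0.31, higher in 6 of 8 mice, exact permutation test, adjusted p = 0.0527). The levels of Atp7a and Slc40a1 lie below the 0.5 added before taking logs, which shrinks their difference. In the same test it was 0.73 with 0.1 added (adjusted p = 0.0439) and 1.18 with no length (adjusted p = 0.0201). With the canonical transcript length it was 0.09 (exact permutation test, adjusted p = 0.609). The order of Cybrd1 and Slc31a1, and that of Atp7b and Slc11a2, turned when the length of the canonical transcript was used instead (log2 differences of -0.87 and -0.99), since the annotation gives Slc11a2 11071 bases of exon in all and 3025 in its canonical transcript, and Slc31a1 7890 and 3746.

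**Figure D4:**
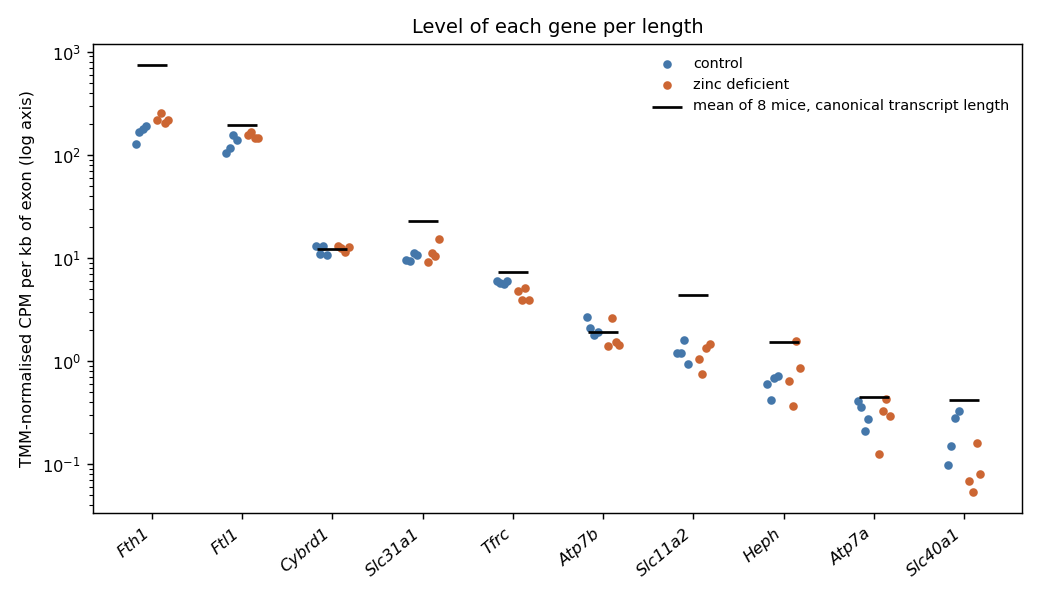
Normalised CPM per kb of summed exon length (log axis) of each gene, with a point for each of the 4 control and 4 zinc deficient mice and a black bar for the mean of the 8 mice when the canonical transcript length is used. The ferritin genes lie above all others, and the bars show that the order of the genes below them depends on the length taken.

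Other genes of the same pathways were followed in 4 lists. Of 36 further iron genes, 24 had enough counts to be tested, and 0 were called, with 13 above and 11 below 0, a median log2 fold change of 0.01 and 3 with an unadjusted p under 0.05. Steap1, a metalloreductase, was lower in all 4 zinc deficient mice (1.08, 1.23, 1.13 and 1.80 CPM against 0.647, 0.505, 0.319 and 0.468 CPM), on counts of 4 to 20, and did not pass (log2 fold change -1.43, SE 0.51, edgeR adjusted p = 0.286). Slc39a8, a transporter of zinc, iron and manganese, was higher in all 4 zinc deficient mice (47.9, 45.0, 45.0 and 42.7 CPM against 54.1, 52.2, 60.9 and 64.6 CPM) and did not pass either (log2 fold change 0.36, SE 0.13, edgeR adjusted p = 0.308). Pcbp1 and Pcbp2, iron chaperones that also bind RNA, had the highest levels per length of the list, with log2 fold changes of 0.01 (SE 0.16) and -0.07 (SE 0.14). Regulators of body iron that are best known from the liver, such as Hamp, Hjv, Bmp6 and Tmprss6, had too few counts to be tested.

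Of 22 further copper genes, 17 were tested and 0 were called, with 9 above and 8 below 0, a median of 0.00 and 0 with an unadjusted p under 0.05. The chaperone Ccs, which delivers copper to superoxide dismutase, had the lowest unadjusted p of the list (11.5 ± 1.17 CPM in control mice and 8.97 ± 1.31 CPM in zinc deficient mice, SD, n = 4 each). Cox17, a copper chaperone of the mitochondria, stood at 2.92 ± 1.27 and 4.63 ± 1.71 CPM. Sod1, the copper and zinc superoxide dismutase, had a log2 fold change of -0.07 (SE 0.16).

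Genes that follow zinc were listed as a comparison, and none of them was called. Mt1 and Mt2, the metallothioneins that bind zinc and copper, had log2 fold changes of -0.25 (SE 0.24) and 0.46 (SE 0.37), on opposite sides of 0. The zinc exporter Slc30a1 had -0.37 (SE 0.37), and the zinc importer Slc39a4 had -0.08 (SE 0.23). The sources used here do not give the zinc content of blood or tissue.

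Heme synthesis and the assembly of iron-sulfur clusters use the iron that cells take up. Of 12 heme synthesis genes, 11 were tested and 0 were called, with 7 above and 4 below 0 and a median of 0.07. Alas1, which starts the pathway, had a log2 fold change of 0.25 (SE 0.19), Tmem14c, a mitochondrial porphyrin transporter, 0.30 (SE 0.18), and Cpox, an enzyme of a late step, -0.20 (SE 0.17). Of 27 iron-sulfur cluster genes, 26 were tested and 0 were called, with 19 above and 7 below 0, a median of 0.14 and 3 with an unadjusted p under 0.05, beside 49.3% of all genes above 0.

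Nubp1, a scaffold of cytosolic cluster assembly, was higher in all 4 zinc deficient mice (11.8, 10.5, 11.5 and 11.5 CPM against 15.9, 16.5, 14.1 and 17.1 CPM). Its log2 fold change was 0.49 (SE 0.16), and it did not pass the test (edgeR, adjusted p = 0.249). Ciao2a, also of the cytosolic pathway, had 30.8 ± 9.82 and 42.8 ± 8.12 CPM (SD, n = 4 each, edgeR adjusted p = 0.426). The mitochondrial chaperone Hspa9 had a log2 fold change of -0.18 (SE 0.15).

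**Figure D5:**
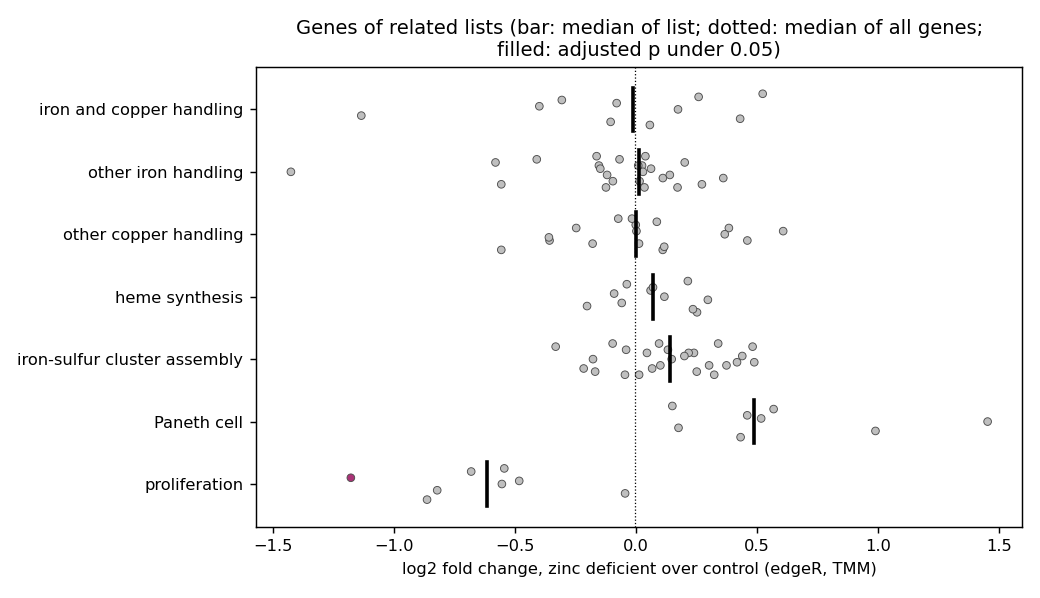
Log2 fold change of zinc deficient over control (edgeR, TMM) for each tested gene of 7 lists, with a bar at the median of each list and a dotted line at the median of all genes. Medians lie between -0.01 and 0.14 for the iron, copper, heme and iron-sulfur lists, at 0.49 for Paneth cell markers and at -0.62 for proliferation markers, where Top2a is the filled point.

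Promoters of the 10 genes were searched for the core letters of metal response elements, at which the zinc-sensing factor MTF-1 binds in the metallothionein genes. The letters were TGCACNC or TGCGCNC, on both strands, in the 250 bases before and 50 bases after the RefSeq start (GRCm38.p6). An entry was found for 7 of the 10 genes, and 3 of these held a match, Tfrc with 2, Atp7a with 2 and Atp7b with 1. Of all 27025 genes with an entry, 28.2% held a match. Mt1 held 3 matches, Mt2 4 and Slc30a1 2. A match is a description of letters and not a binding site.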

How the data were processed

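The authors deposited a table of whole-number read counts per Ensembl gene identifier, not normalised, for 8 libraries from a stranded mRNA kit (Illumina TruSeq). The submitters' processing notes name FastQC 0.12.0, STAR 2.7.0a, DESeq2 and mm39. The sources used here do not give the counting program, its strand setting or the annotation release, so overlapping and near-identical genes may share reads.

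Identifiers were named with GENCODE M39 on GRCm39, where 54749 of 55414 were found and 665 were not. Where several identifiers carried the same symbol (74 symbols), the one with the most counts was used. The diets were tested against each other in edgeR 4.0.16 under R 4.3.3 (expression filter, TMM, robust quasi-likelihood test, Benjamini-Hochberg over 10911 genes, threshold 0.05). DESeq2 1.42.0 was an alternative. Normalised CPM are counts per 1000000 counts of the TMM-corrected library size. For levels per length, log2(CPM per kb + 0.5) was compared by an exact sign-flip test over 8 mice. Uniqueness was searched in 70-base windows on both strands of the genome and in other transcripts.

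On counts simulated for this comparison over 10911 genes, edgeR recovered, among changed genes above 5 CPM, 98.2% of genes with a 4-fold change and 75.9% of genes with a 2-fold change, and of its 191 calls 7.33% fell on genes left unchanged. Slc40a1 and Atp7a lie below that level, where recovery was not measured. Changes smaller than 2-fold, such as 0.758 times for Tfrc and 1.35 times for Fth1, were not simulated, so recovery at those sizes is unknown.

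Replicates were described as biological by the submitters, and no pair of libraries agreed within sampling noise (chi-square per degree of freedom 5.51 to 61.0). Replicate numbers are not said to mark a shared cage or day. Libraries of 8557690 to 12648005 counts put the limit of a count of 0 at 3 counts, for counting error only.

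The 10 genes, the pathway lists and the marker lists were chosen with earlier results of these data known. Other genes named are, per list, those called, the 2 with the lowest unadjusted p and the 2 with the highest level per length, together with Slc39a4, Slc30a1, Mt1 and Mt2, the 3 genes most like Tfrc and like Fth1, and markers beside a result. Hamp, Hjv, Bmp6 and Tmprss6 are named outside this rule. The values of 1 gene of the marker lists are not reported here.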

Additional observations from a re-analysis of the deposited data

Results flagged for a closer look

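Each gene was examined within each diet for a mouse far from the others, which made 20 groups of 4 mice. Atp7b in zinc deficient mouse 2, at 16.9 CPM, stood apart from its group, whose next value was 10.05 CPM, with a gap of 0.887 of the range of the group. Such a value is met by chance in about 1 of 20 groups, and 1 was met here. No gene was flagged in the control mice.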

How the results depend on the processing

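None of the 10 genes, and none of the genes of the 4 pathway lists, was called under any of 15 alternatives (7 other settings of scaling, filter, test, robust option or block, and each of 8 mice left out). Between 2 and 4 of the 10 had an unadjusted p under 0.05. DESeq2 called 146 of all genes against 44. With library size only, the log2 fold change turned to -0.32 for Cybrd1, -0.066 for Ftl1 and -0.18 for Slc31a1, beside the shift of all genes to -0.37. With 1 mouse left out, Slc11a2 ranged from -0.22 to 0.076 and Atp7a from -0.36 to 0.14. Signs of the other 5 genes held under all 15, with Tfrc between -0.74 and -0.34 and Fth1 between 0.10 and 0.50. Same-numbered mice deviated together with correlations of 0.0335 to 0.0891, none over 0.1, beside -0.156 to 0.128 for mice with different numbers. As the latter range spans the former, these values cannot decide whether the numbers pair the mice. The main fit did not pair them. A fit with the replicate number as a block called 53 of all genes and gave -0.41 for Tfrc and 0.35 for Heph. In the order of levels, 6 to 8 of 9 pairs differed in the direction of the main order. Pairs that differed in the turned direction were not counted. Cybrd1 over Slc31a1 became -0.87 with the canonical length and -0.38 with no length, and Atp7b over Slc11a2 became -0.99 and -0.062. With 1 mouse left out these ranged from 0.13 to 0.23 and from 0.40 to 0.60. Low counts, down to 4, limit the values of Slc40a1 and Steap1.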
